A study of Mus musculus with 12 samples.

Results

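In livers overexpressing ChREBP, 10 genes were followed whose products coat lipid droplets or control the breakdown of the fat inside them. They were taken by identifier from the table of all genes, all 10 members were among the 22309 genes measured, and their symbols come with the list rather than from the files. They are 4 perilipins (Plin2, ENSMUSG00000028494_at; Plin3, ENSMUSG00000024197_at; Plin4, ENSMUSG00000002831_at; Plin5, ENSMUSG00000011305_at), the 3 CIDE genes (Cidea, ENSMUSG00000024526_at; Cideb, ENSMUSG00000022219_at; Cidec, ENSMUSG00000030278_at), and a lipase with its inhibitors (Pnpla2, ENSMUSG00000025509_at; G0s2, ENSMUSG00000009633_at; Hilpda, ENSMUSG00000043421_at).

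A lipid droplet is a core of triglycerides and sterol esters wrapped in a single layer of phospholipids and a coat of proteins. Perilipins shield this core from lipases, CIDE proteins gather at the contacts between droplets and move lipid into the larger one, and adipose triglyceride lipase, encoded by Pnpla2, takes the initial fatty acid off a triglyceride. Hepatocytes store few droplets in a lean mouse and many in a steatotic one.

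Arrays, 1 per mouse, were run on 6 livers from ChREBP adenovirus mice and 6 from GFP adenovirus mice, all male C57BL/6J. The mice were 10 weeks old by the labels, and the methods describe intravenous injection at 8 weeks and examination 3 weeks later, with mice that failed to overexpress the transgene removed from the cohort. Both groups carried an adenovirus, and GFP, a fluorescent protein, stood for the virus without ChREBP, the glucose-activated transcription factor that drives glycolytic and lipogenic genes. The promoter that drove the transgene is not given in the sources used here. Values were log2 levels after RMA, so a difference of 1 is a doubling, and those of different probe sets cannot be ranked against each other. Array medians were 5.99 to 6.09. ChREBP livers 4, 5 and 6 and GFP liver 6 stood apart. In each, 38 to 105 of the 22309 genes were more than 4-fold above the median of the other livers of their group. The other 8 livers had 0 to 4 such genes. With so few genes marked, the 0 of 10 members among them in any liver does not show that the members were spared. The identifiers of ChREBP itself and of cell type markers were not paired with names in the files, so the transgene and the liver identity were not checked here. In bulk RNA, fewer cells of a type and less RNA per cell cannot be told apart.

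The comparison of ChREBP with GFP livers asked what ChREBP overexpression changes in liver expression. Of the 10 genes, 7 were higher in ChREBP livers (limma adjusted p under 0.05), namely Cidea, Cidec, G0s2, Hilpda, Pnpla2, Plin2 and Plin4, against 12.2% of all genes. None was lower, whereas 14.0% of all genes were, and Plin3, Plin5 and Cideb did not pass. At an unadjusted p under 0.05, and in the per-gene test of the methods after adjustment, 0 members were lower as well. The 5 members that rose by at least 1.5-fold were Cidea, Cidec, G0s2, Hilpda and Pnpla2, against 3.73% of all genes. In 6 of the 10 genes every ChREBP liver lay above every GFP liver, against 7.68% of all genes, Plin4 being the called gene whose groups overlapped. The median log2 change was 0.73 over the 10 genes and -0.05 over all genes.

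**Figure D1:**
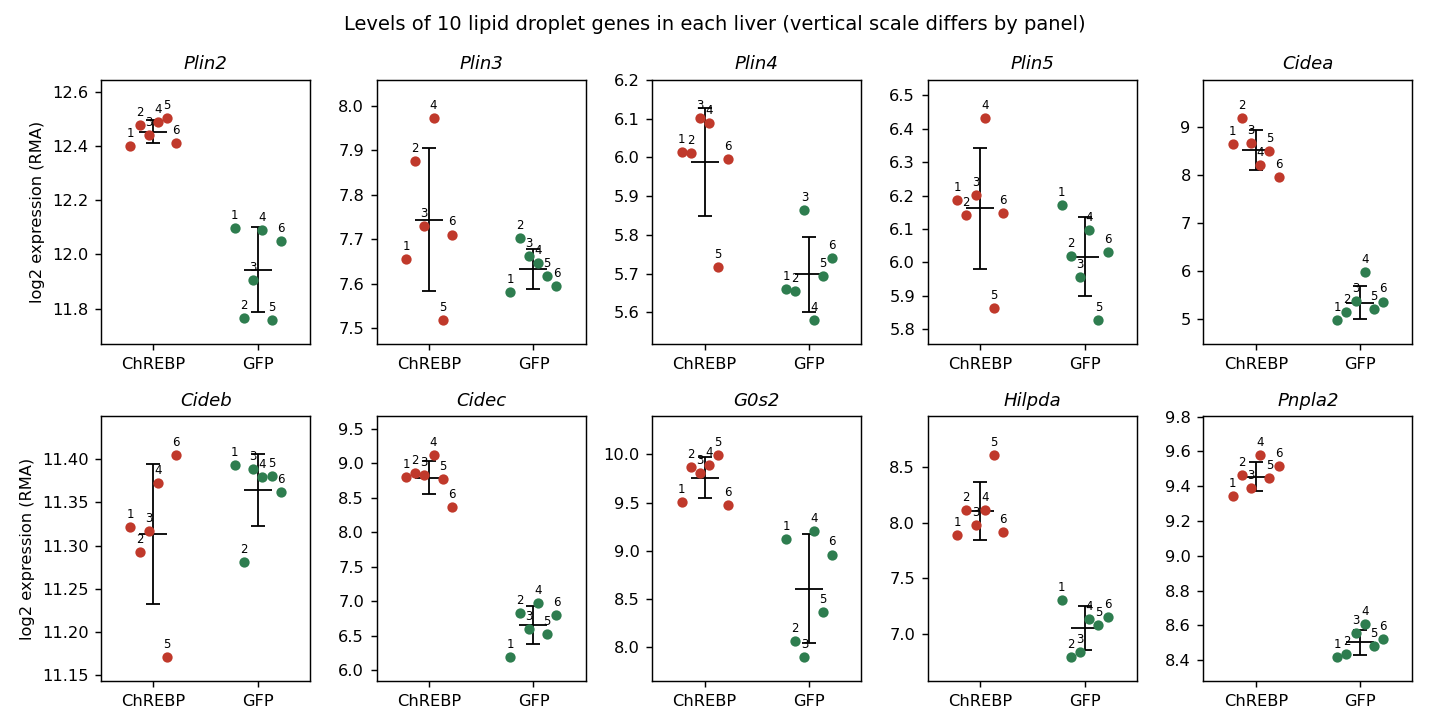
Log2 expression of each of the 10 genes (vertical axis, scale differs by panel) in the 6 ChREBP livers (red) and the 6 GFP livers (green), with the liver number beside each point and black bars for mean ± SD. The groups are apart for Plin2, Cidea, Cidec, G0s2, Hilpda and Pnpla2 and overlap for Plin3, Plin4, Plin5 and Cideb.

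The sequences at the start sites were read for 9 of the 10 genes from RefSeq on build GRCm38.p6, as windows of 250 bases before to 50 bases after each start, 12 windows in all. ChREBP binds with its partner Mlx to a pair of E-boxes spaced by 5 bases, and nuclear receptors such as the PPARs bind repeats of a short core. The E-box CACGTG was present in 1 window, that of Plin2, at offset -4 from the start, and in 7.15% of all 32851 windows. The full pair of perfect E-boxes, CACGTGNNNNNCACGTG, was in 0 of all 32851 windows, so a search for this exact form could mark no gene. Pairs with imperfect E-boxes were not searched. The nuclear receptor core AGGTCA was found in the Plin2 window and in both windows of Plin5 (16.3% of all windows). The direct repeat AGGTCANAGGTCA was in none of the 12 windows (0.0396% of all windows). The GC box GGGCGG was in the single windows of Plin2, Plin3, Cideb, G0s2 and Pnpla2 and in both windows of Plin5 and of Hilpda (35.7% of all windows). Both strands were searched, and each repeat contains its own core.

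The windows of 3 genes that rose are shown, Plin2 because it holds the E-box and Cidec and Pnpla2 because they hold none. Capitals mark the E-box, the nuclear receptor core and the GC box on either strand, and the Cidec window shown, like the other Cidec window, has none. They are chr4:86670010-86670309 on the minus strand for Plin2, chr6:113435711-113436010 on the minus strand for Cidec and chr7:141454938-141455237 on the plus strand for Pnpla2, each written 5′ to 3′ along its gene.
Plin2: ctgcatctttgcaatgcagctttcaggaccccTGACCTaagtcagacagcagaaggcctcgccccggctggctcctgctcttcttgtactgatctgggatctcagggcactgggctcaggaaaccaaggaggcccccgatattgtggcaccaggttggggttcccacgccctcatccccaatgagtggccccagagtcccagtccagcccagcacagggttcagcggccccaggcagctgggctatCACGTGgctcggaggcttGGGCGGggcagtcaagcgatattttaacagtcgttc
Cidec: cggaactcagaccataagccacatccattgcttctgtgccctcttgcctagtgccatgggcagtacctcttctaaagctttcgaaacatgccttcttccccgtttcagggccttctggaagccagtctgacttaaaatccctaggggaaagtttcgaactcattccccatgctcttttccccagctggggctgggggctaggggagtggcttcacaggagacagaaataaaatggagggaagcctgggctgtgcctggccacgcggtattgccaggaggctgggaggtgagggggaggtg
Pnpla2: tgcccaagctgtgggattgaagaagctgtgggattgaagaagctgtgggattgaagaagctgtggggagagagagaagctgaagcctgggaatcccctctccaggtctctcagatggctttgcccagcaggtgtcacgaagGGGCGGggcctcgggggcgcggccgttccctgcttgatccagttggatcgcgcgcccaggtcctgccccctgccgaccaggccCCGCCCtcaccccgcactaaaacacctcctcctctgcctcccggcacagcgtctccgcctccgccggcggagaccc
A match of letters is a description only. The absence of one in these short windows says nothing about imperfect sites inside them or about binding elsewhere.

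Among the CIDE genes, Cidea and Cidec rose and Cideb did not pass the test. Cidea, a droplet fusion protein typical of brown fat that is scarce in lean mouse liver, stood at 8.64, 9.18, 8.66, 8.21, 8.50 and 7.95 in ChREBP livers 1 to 6, against 4.97, 5.14, 5.37, 5.97, 5.20 and 5.36 in GFP livers 1 to 6. The lowest ChREBP liver was 1.98 above the highest GFP liver on the log2 scale. Cidea averaged 8.52 ± 0.42 in ChREBP livers and 5.34 ± 0.34 in GFP livers (SD, n = 6 each), a 9.11-fold rise (log2 change 3.19, SE 0.19, limma adjusted p = 8.05e-08) that ranked 20 among all rises. In GFP livers all 6 values lay between the 25th percentile and the median of their array, a range in which RMA compresses differences.

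Cidec, also called Fsp27, which builds the large droplets of white fat, stood at 8.80, 8.86, 8.84, 9.12, 8.78 and 8.37 in ChREBP livers 1 to 6, against 6.19, 6.83, 6.60, 6.98, 6.52 and 6.80 in GFP livers 1 to 6. The groups were far apart, and ChREBP liver 6 held the lowest ChREBP value of both Cidec and Cidea. Cidec averaged 8.79 ± 0.24 in ChREBP livers and 6.65 ± 0.28 in GFP livers (SD, n = 6 each), a 4.41-fold rise (log2 change 2.14, SE 0.13, limma adjusted p = 1.01e-07) that ranked 75. Cideb, the family member that hepatocytes normally use to load lipid onto very low density lipoproteins, had a lowest, median and highest value of 11.17, 11.32 and 11.40 in ChREBP livers, against 11.28, 11.38 and 11.39 in GFP livers. The ranges of the groups overlapped. The log2 change of Cideb was -0.05 (95% interval -0.15 to 0.05, limma adjusted p = 0.415). It was -0.02 without ChREBP liver 5 (limma adjusted p = 0.714). It was -0.07 without GFP liver 2 (limma adjusted p = 0.304) and -0.07 without ChREBP liver 6 (limma adjusted p = 0.293).

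The CIDE paralogs thus did not change to the same extent, and this difference was tested directly on the per-liver difference of 2 genes (exact permutation test, two-sided, 12 pairs of genes in all, Benjamini-Hochberg adjusted over the 12). The change of Cidea exceeded that of Cideb by 3.24 (SE 0.23) on the log2 scale and that of Cidec by 1.05 (SE 0.19), and the change of Cideb minus that of Cidec was -2.19 (SE 0.16). All 3 reached p = 0.00216 by exact permutation, a floor set by the number of livers, and an adjusted p of 0.00519, and the per-liver differences did not overlap between groups. Cidea lay below the array median in every GFP liver, and what compression of dim values adds to its differences was not tested.

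**Figure D2:**
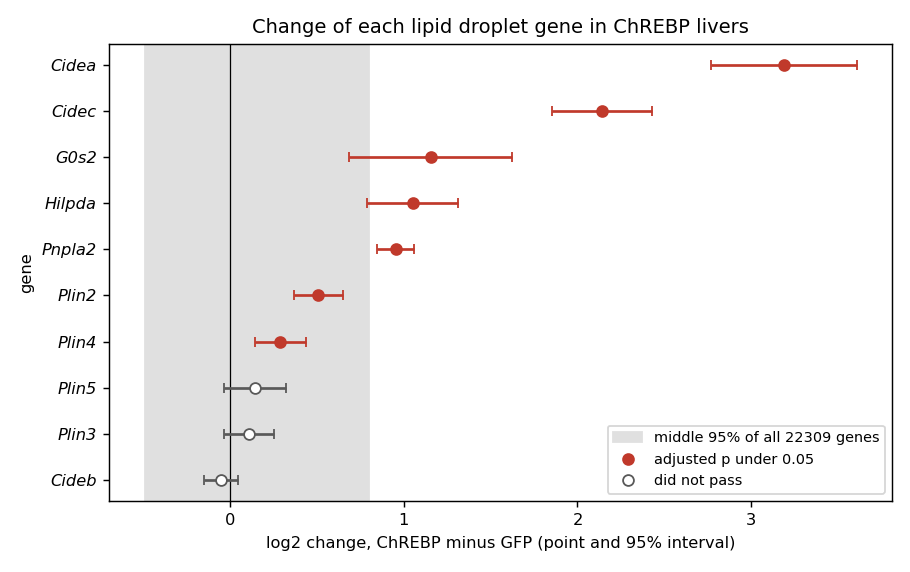
Log2 change of each gene, ChREBP minus GFP livers (horizontal axis), with 95% intervals from limma for 6 livers per group. Red points passed an adjusted p of 0.05 and open points did not, and the grey band spans the middle 95% of all 22309 genes, from -0.49 to 0.80. Cidea, Cidec, G0s2, Hilpda and Pnpla2 lie to the right of the band.

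Of the lipolysis genes, the lipase and both of its inhibitors rose. Pnpla2 stood at 9.34, 9.46, 9.39, 9.58, 9.45 and 9.52 in ChREBP livers 1 to 6, against 8.42, 8.43, 8.56, 8.61, 8.48 and 8.52 in GFP livers 1 to 6. It varied little within either group, 9.46 ± 0.09 in ChREBP livers and 8.50 ± 0.07 in GFP livers (SD, n = 6 each), and its 1.94-fold rise (log2 change 0.95, SE 0.05, limma adjusted p = 2.18e-08) ranked 418 by size but 59 by p-value among all genes.

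G0s2, a small protein that binds the lipase and blocks its activity, stood at 9.51, 9.87, 9.81, 9.89, 9.99 and 9.48 in ChREBP livers 1 to 6, against 9.12, 8.06, 7.90, 9.20, 8.37 and 8.96 in GFP livers 1 to 6. The groups did not overlap, though GFP livers 1, 4 and 6 came close to the lowest ChREBP liver and GFP livers 2, 3 and 5 lay far below it. Over the group G0s2 averaged 9.76 ± 0.21 in ChREBP livers and 8.60 ± 0.57 in GFP livers (SD, n = 6 each), a 2.23-fold rise (log2 change 1.16, SE 0.22, limma adjusted p = 0.00139). Hilpda, a hypoxia-inducible droplet protein that also inhibits the lipase, stood at 7.89, 8.11, 7.98, 8.12, 8.61 and 7.92 in ChREBP livers 1 to 6, against 7.31, 6.80, 6.84, 7.14, 7.08 and 7.15 in GFP livers 1 to 6. ChREBP liver 5 was clearly the highest, and the groups were apart with or without it. Hilpda averaged 8.10 ± 0.26 in ChREBP livers and 7.05 ± 0.20 in GFP livers (SD, n = 6 each), a 2.07-fold rise (log2 change 1.05, SE 0.12, limma adjusted p = 2.41e-05).

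Neither inhibitor was shown to rise more or less than the lipase. The change of G0s2 minus that of Pnpla2 was 0.20 on the log2 scale (95% interval -0.26 to 0.66, exact permutation adjusted p = 0.512), and the change of Hilpda minus that of Pnpla2 was 0.10 (95% interval -0.18 to 0.38, exact permutation adjusted p = 0.553). These intervals are wide enough to hold a ratio shift of 1.5-fold for G0s2. Both differences moved with single livers. That of G0s2 was 0.05 without GFP liver 3, 0.11 without GFP liver 2 and 0.32 without GFP liver 1, and that of Hilpda was -0.0038 without ChREBP liver 5, 0.04 without GFP liver 3, 0.06 without GFP liver 2 and 0.17 without GFP liver 1, none of which passed. Plin5, a perilipin that binds the lipase and its activator at droplets and links droplets to mitochondria, did differ from the lipase. The change of Plin5 minus that of Pnpla2 was -0.81 (SE 0.09, exact permutation adjusted p = 0.00519). Levels of Plin5 lay near the array median, and what compression of dim values adds to this difference was not tested.

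Of the perilipins, Plin2 and Plin4 rose, both by less than 1.5-fold. Plin2, the main coat protein of hepatocyte droplets, stood at 12.40, 12.48, 12.44, 12.49, 12.50 and 12.41 in ChREBP livers 1 to 6, against 12.10, 11.77, 11.90, 12.09, 11.76 and 12.05 in GFP livers 1 to 6. The ChREBP livers lay close together and above all GFP livers. Plin2 averaged 12.45 ± 0.04 in ChREBP livers and 11.94 ± 0.16 in GFP livers (SD, n = 6 each), a 1.42-fold rise (log2 change 0.51, SE 0.07, limma adjusted p = 6.66e-05). It was already a bright probe set in GFP livers. The brightest gene of each of the 12 arrays reached 13.41 to 13.55.

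Plin4, a perilipin best known from white fat, where it covers small nascent droplets, stood at 6.01, 6.01, 6.10, 6.09, 5.72 and 6.00 in ChREBP livers 1 to 6, against 5.66, 5.65, 5.86, 5.58, 5.69 and 5.74 in GFP livers 1 to 6. ChREBP liver 5 fell inside the range of GFP livers and the other 5 ChREBP livers lay above it. Plin4 averaged 5.99 ± 0.14 in ChREBP livers and 5.70 ± 0.10 in GFP livers (SD, n = 6 each), a 1.22-fold rise (log2 change 0.29, SE 0.07, limma adjusted p = 0.00635). The levels lay near the array median, and the gene drops out when genes below the 50th percentile of mean level are not tested.

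Plin3, an exchangeable coat protein that moves between cytosol and droplets, had a lowest, median and highest value of 7.52, 7.72 and 7.97 in ChREBP livers, against 7.58, 7.63 and 7.70 in GFP livers. Plin5 had 5.86, 6.17 and 6.43 in ChREBP livers, against 5.83, 6.03 and 6.17 in GFP livers, levels near the array median. For both genes the groups overlapped and ChREBP liver 4 was the highest and ChREBP liver 5 the lowest of the ChREBP livers. Their log2 changes were 0.11 (95% interval -0.03 to 0.25, limma adjusted p = 0.239) for Plin3 and 0.14 (95% interval -0.03 to 0.32, limma adjusted p = 0.212) for Plin5. ChREBP livers 4 and 5 pulled both values in opposite directions. Without ChREBP liver 4 the change was 0.06 for Plin3 (limma adjusted p = 0.423) and 0.09 for Plin5 (limma adjusted p = 0.374), and without ChREBP liver 5 it was 0.15 for Plin3 (limma adjusted p = 0.0757) and 0.20 for Plin5 (limma adjusted p = 0.0515). In the GRCm38.p6 annotation Plin4 and Plin5 are immediate neighbours on chromosome 17, with 0 annotated genes between them, and Plin3 lies on the same chromosome with 9 genes between it and Plin5.

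Within this family the change of Plin2 exceeded that of Plin3 by 0.40 (SE 0.10, exact permutation adjusted p = 0.00866) and that of Plin5 by 0.36 (SE 0.09, exact permutation adjusted p = 0.00519). It was not distinguished from that of Plin4, with a difference of 0.22 (95% interval -0.01 to 0.45, exact permutation adjusted p = 0.12). The difference from Plin4 passed without GFP liver 4 (0.27, exact permutation adjusted p = 0.0408). The neighbours Plin4 and Plin5 differed by 0.14 (95% interval -0.05 to 0.34, exact permutation adjusted p = 0.173) and Plin3 and Plin5 by -0.03 (95% interval -0.21 to 0.14, exact permutation adjusted p = 0.623). The change of Plin3 minus that of Plin4 was -0.18 (SE 0.06, exact permutation adjusted p = 0.0408), a call that was lost without any one of ChREBP livers 1, 3, 5 and 6 and GFP livers 1, 2, 4 and 5 (adjusted p from 0.0557 to 0.0816) and with limma on the same differences (adjusted p = 0.0652). In all, 7 of the 12 pairs passed. Where a pair holds Plin4 or Plin5, both near the array median, what compression of dim values adds to the difference was not tested. The same holds for pairs with Cidea, which lay below the array median in GFP livers.

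**Figure D3:**
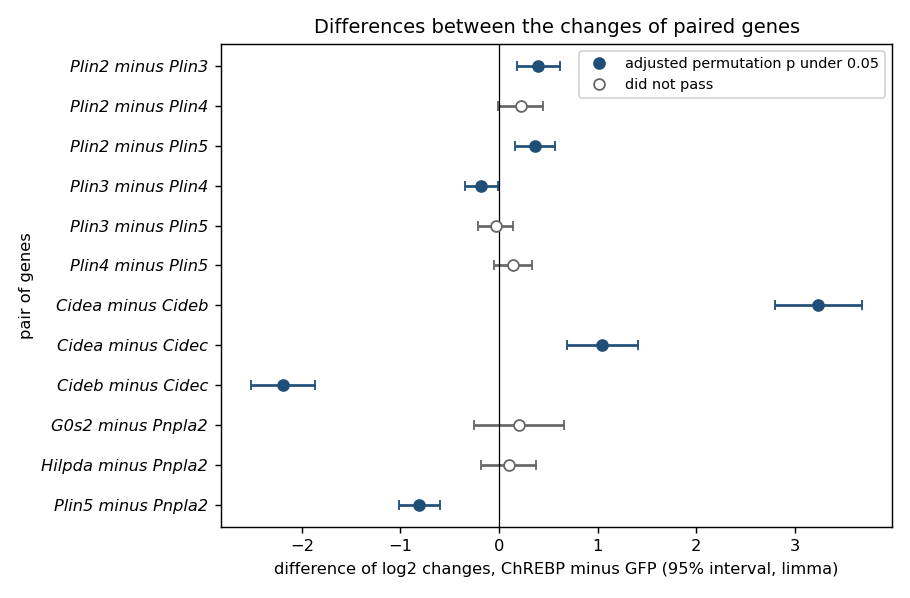
Difference between the log2 changes of 2 genes, first minus second (horizontal axis), for the 12 pairs tested, with 95% intervals from limma. Filled points passed an adjusted exact permutation p of 0.05. The largest differences are those of Cidea and Cidec against Cideb (3.24 and, as Cideb minus Cidec, -2.19).

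The genes also varied among livers of the same treatment, and Plin2, G0s2 and Hilpda had nearly the same order in ChREBP livers but not in GFP livers. Among GFP livers, numbers 1, 4 and 6 held the 3 highest values of Plin2, G0s2, Hilpda and Plin5. Their full orders differed, GFP livers running from high to low 1, 4, 6, 3, 2, 5 for Plin2, 4, 1, 6, 5, 2, 3 for G0s2 and 1, 6, 4, 5, 3, 2 for Hilpda, with a different lowest liver for each. Among ChREBP livers, numbers 2, 4 and 5 held the 3 highest values of Plin2, G0s2 and Hilpda but of none of the other 7 genes. From high to low the ChREBP livers ran 5, 4, 2, 3, 6, 1 for both Plin2 and Hilpda and 5, 4, 2, 3, 1, 6 for G0s2. Pnpla2 did not follow, its ChREBP livers running 4, 6, 2, 5, 3, 1. These orders were noticed after the values were seen and were not tested, and ChREBP livers 4 and 5 are among those that stood apart over all genes, whose part in them was not tested.

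**Figure D4:**
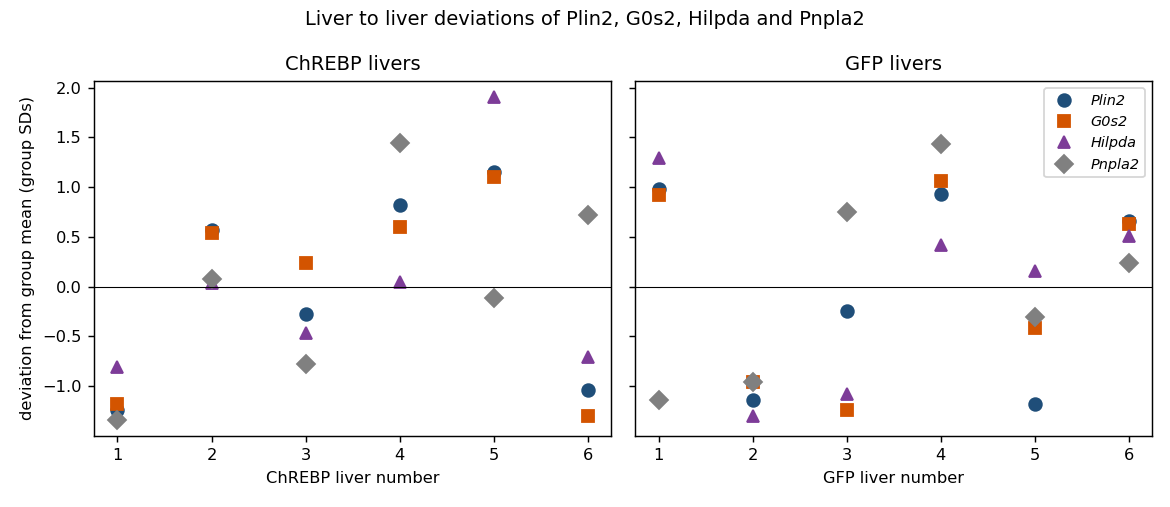
Deviation of each liver from the mean of its group, in units of that group's SD (vertical axis), for Plin2, G0s2, Hilpda and Pnpla2 in ChREBP livers 1 to 6 (left) and GFP livers 1 to 6 (right). Plin2, G0s2 and Hilpda are lowest in ChREBP livers 1 and 6 and above their mean in GFP livers 1, 4 and 6.

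ChREBP liver 5 held extreme values in both directions among the 10 genes. It had the highest ChREBP value of Plin2, G0s2 and Hilpda and the lowest of Plin3, Plin4, Plin5 and Cideb. With 105 genes far above its group it also stood apart most, and here liver and array cannot be told apart. Without ChREBP livers 4, 5 and 6 and GFP liver 6 the same 7 genes were called, with log2 changes of 3.49 for Cidea, 2.21 for Cidec, 1.20 for G0s2, 0.96 for Hilpda, 0.90 for Pnpla2, 0.52 for Plin2 and 0.35 for Plin4 (limma adjusted p from 3.34e-06 to 0.0156).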

How the data were processed

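RNA from 12 livers was hybridised to Affymetrix Gene ST arrays, 1 per mouse. The labels name the mouse 1.0 design and the methods a human 2.0 design, and the identifiers are those of mouse genes. The deposited values are log2 expression levels made by the authors with RMA (background correction, quantile normalization, probe summary), followed by Partek; versions are not given in the sources used here. Quantile normalization removes changes shared by most genes, and dim values are compressed.

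Groups and replicate numbers came from sample titles, and all 12 columns were used. Changes are ChREBP minus GFP from limma 3.58.1 (R 4.3.3; lmFit, eBayes), as a two-sided test whose p-values were Benjamini-Hochberg adjusted across the 22309 genes, no filter on dim genes, and thresholds of an adjusted p of 0.05 and a 1.5-fold change. Ratios between 2 genes were tested by exact permutation of the 12 livers, for 12 pairs, and their 95% intervals came from limma and were not adjusted for the number of pairs. Precision is limited by 6 arrays per group. The scripts were tested on simulated data. Figures used matplotlib 3.10.9 in Python 3.11.15.

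All 10 members are named, whether or not they passed, and the value of every liver is given for those that did. The members, the pairs and the alternatives were chosen with earlier results of these data known. Symbols of the 10 genes came with their list, all 10 were in the RefSeq annotation by symbol, and 0 of 22309 rows could be matched to it by Ensembl identifier, so the planned lists of other droplet genes and of cell type markers were not applied. Alternatives were 3 further normalizations, 2 filters on dim genes, array weights, eBayes with trend and robust, the methods' per-gene test with and without adjustment, a replicate block, and fits without single or several livers.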

Additional observations from a re-analysis of the deposited data

Results flagged for a closer look

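A single distant liver was looked for in 44 sets of 6 values, the 10 genes and the 12 pairs in each group, and found in 8, where chance marks about 1 set in 20. The sets overlap, since a pair shares its genes with other sets. Plin4 was 5.72 in ChREBP liver 5, against 6.00 in the nearest ChREBP liver. Hilpda was 8.61 in ChREBP liver 5, against 8.12 in the nearest. The pairs Plin2 minus Plin4 (6.78 against 6.47 in the nearest liver) and Hilpda minus Pnpla2 (-0.84 against -1.35) were distant in the same ChREBP liver 5. Plin4 minus Plin5 was -0.34 in ChREBP liver 4, against -0.17 in the nearest. Cideb minus Cidec was 3.03 in ChREBP liver 6, against 2.52 in the nearest. Cideb was 11.28 in GFP liver 2, against 11.36 in the nearest GFP liver, and Plin2 minus Plin5 was 5.75 in GFP liver 2, against 5.93 in the nearest.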

How the results depend on the processing

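Under 25 alternatives between 6 and 7 members were higher, 0 were lower and 5 changed at least 1.5-fold. The count of 6 came from the filter at the 50th percentile, which left Plin4 untested. The 7 called genes that were tested kept their direction and their call under all 25, and Plin3, Plin5 and Cideb stayed without one. The change of Cideb was 0.0014 after a second quantile normalization and 0.0030 after cyclic loess. With each array centred on its median it was -0.08 (limma adjusted p = 0.184). G0s2 minus Pnpla2 was 0.05 to 0.32 and Hilpda minus Pnpla2 -0.0038 to 0.17 without each liver in turn, and the second was -0.0014 without ChREBP livers 4 and 5. Plin2 minus Plin3 did not pass without ChREBP livers 4, 5 and 6 and GFP liver 6 (0.40, adjusted p = 0.0714, exact permutation with 3 against 5 livers), and Plin3 minus Plin4 did not pass there or without liver 6 of both groups. The replicate numbers did not pair the livers (correlation of deviations -0.06 to 0.24 between livers of 1 number, and only liver 6 matched its own number best). With a replicate block limma gave 7 higher members and 5 changed at least 1.5-fold, and all calls over all genes numbered 4787. The blocked exact test of the pairs called 0 of 12, its lowest adjusted p being 0.0536, and says nothing about their stability. The number of arrays limits what small changes, such as those of Plin3 and Plin5, can show.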

Other observations

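The spread between livers differed by group for some of the genes. The SD of Plin2 was 0.04 in ChREBP livers and 0.16 in GFP livers (n = 6 each), and that of G0s2 was 0.21 in ChREBP livers and 0.57 in GFP livers. For Plin3 the order was the opposite, with an SD of 0.16 in ChREBP livers and 0.05 in GFP livers. The SD of G0s2 in GFP livers was as large as or larger than that of 99.1% of all genes, and the SD of Cidea was so for 97.6% of all genes in ChREBP livers and 97.0% in GFP livers. For Plin2 this share was 4.37% in ChREBP livers and 74.9% in GFP livers, and for Plin3 it was 77.4% in ChREBP livers and 4.06% in GFP livers. Plin2 was a bright probe set, and what its level adds to its spread was not tested. The differences in spread between groups were not tested.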
